A study of Mus musculus with 5 samples.

Results

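The smooth muscle and actin cytoskeleton genes described here are Acta2, Actg2, Tagln, Cnn1, Cnn2, Myl9, Tpm1, Tpm2, Vcl and Flna. They were chosen by name, with earlier results of these data known. Every non-control probe whose transcript record belongs to 1 of these 10 genes was taken. The rule found 20 of the 41174 gene probes on the array, for 10 of the 18327 genes that could be named. Of these, 4 genes (Actg2, Cnn1, Cnn2 and Myl9) had 1 probe and 6 had several. All 20 probes were well above background on at least 1 array, and 15 were on all 5.

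The study asked how the expression of a fused tumor cell changes when the hybrid is reprogrammed and then differentiated. RNA of 5 cell states was hybridized, with 1 array per state and mouse cells throughout. ES was the embryonic stem cell line E14, and Hepa1-6 was a hepatoma line. EHe was the undifferentiated hybrid of both, made by fusion in polyethylene glycol and selected for the drug resistance and fluorescence that each parent carried, and EHeD7 and EHeD14 were EHe differentiated in vitro for 7 and 14 days. The hybrid lines were near-tetraploid and were grown from picked colonies, and the labels do not name the colony used for the arrays. Leukemia inhibitory factor was in the medium of E14 and EHe. By the labels, the differentiated hybrids lay as a monolayer on gelatin in a high-glucose medium that held fetal calf serum, the kind that Hepa1-6 received, so the medium and the differentiated state cannot be told apart. The study's methods describe embryoid bodies in another medium instead, without naming the array samples.

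With 1 array per state there was no spread between replicates, so all differences are given without a test. The scanner software called between 54.7% of probes (Hepa1-6) and 67.6% (EHeD7) well above background. Between spots of 1 probe printed 10 times, the SD of log2 signals had a median of 0.072 (EHeD7) to 0.10 (ES), which is spot noise only. The scanner software's own error for the member probes had a larger median, 0.14 on the log2 scale. A level is the log2 of a probe's processed signal over the 75th percentile of its array, so that 0 is the signal at that percentile, and levels are compared within a probe only. A difference of over 3-fold was called. Where a probe was not well above background on 1 of the arrays compared, the fold is a lower bound, written "at least", taken at the higher of that array's lowest signal well above background and the probe's own value. Hepa1-6 lay on a slide of its own and the other 4 arrays shared another, so the slide and the line cannot be told apart for any difference from Hepa1-6. In RNA of a whole culture, fewer cells of a type and less RNA per cell cannot be told apart.

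Smooth muscle cells contract through filaments of smooth muscle actins, the products of Acta2 and Actg2, which slide along myosin whose regulatory light chain is encoded by Myl9. Calponins, transgelin and tropomyosins lie along these filaments and tune them, while vinculin and filamin A tie actin to the adhesion sites and to the membrane. Many of these genes also act in fibroblasts, myofibroblasts and other spread cells, and their transcription is known to depend on serum response factor (SRF), which binds the CArG box, and on TEAD factors, which bind the MCAT element.

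Promoter windows from RefSeq (GRCm38.p6, 250 bases before to 50 after each start) were found for 8 of the 10 genes. Actg2 and Tagln had no entry. The 4 stretches shown hold the exact CArG boxes or, in Acta2, several near matches, and they run 5′ to 3′ on the strand of the gene. Capitals mark CArG boxes, exact or with 1 mismatch, and MCAT elements (CATTCC on either strand). Acta2 (chr19:34255378-34255539, minus strand) holds 2 CArG boxes with 1 mismatch, at -84 and -34 from the start, and an MCAT element at -146. Myl9 (chr2:156775283-156775332, plus strand) holds an exact CArG box at -161, and Cnn2 (chr10:79988524-79988573, plus strand) holds 1 at -56. Vcl (chr14:20929151-20929280, plus strand) holds an exact CArG box at -227 and an MCAT element at -143. Outside the stretches shown, Myl9 holds a CArG box with 1 mismatch at -99. The Tpm1 window, not shown, holds CArG boxes with 1 mismatch at -221 and -80 and an MCAT element at -56.
Acta2: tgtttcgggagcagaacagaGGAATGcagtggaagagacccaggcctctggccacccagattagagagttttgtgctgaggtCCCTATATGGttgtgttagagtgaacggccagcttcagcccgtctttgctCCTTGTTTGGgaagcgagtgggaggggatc
Myl9: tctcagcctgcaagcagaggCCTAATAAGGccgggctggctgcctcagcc
Cnn2: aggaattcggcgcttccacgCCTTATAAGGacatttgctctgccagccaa
Vcl: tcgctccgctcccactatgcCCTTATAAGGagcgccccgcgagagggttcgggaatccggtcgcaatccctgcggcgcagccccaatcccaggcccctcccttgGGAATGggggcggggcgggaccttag

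An exact CArG box was present in 3 of the 8 member windows, those of Myl9, Cnn2 and Vcl, and in 1.63% of all 32851 windows. With up to 1 mismatch it was present in 6 of 8 and in 21.1% of all. MCAT was present in 4 of 8, those of Acta2, Tpm1, Vcl and Flna, and in 14.7% of all. The windows of Cnn1 and Tpm2 held neither motif. A match describes letters in this window and no binding was measured. On differentiation Myl9 and Cnn2 rose over 3-fold and Vcl, with an exact box of the same letters as that of Cnn2, did not pass that threshold. With 1 mismatch, Acta2 and Tpm1 rose by some of their probes and Flna did not pass. Cnn1 and Tpm2, without a match, rose. Whether these motifs bear on the changes was not tested.

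On differentiation, 7 of the 10 genes had at least 1 probe over 3-fold above EHe at both day 7 and day 14, namely Acta2, Tagln, Cnn1, Cnn2, Myl9, Tpm1 and Tpm2. Over probes as measured, 12 of 20 were over 3-fold higher at both days and 0 were lower, beside 6.3% of all 29949 probes compared that were higher and 3.45% that were lower. The members were chosen with earlier results of these data known, so their share beside the background is a description and no test. At day 14 alone the background was 8.21% higher and 4.66% lower. With the signals that were not well above background raised to the detection limit, 10 of the 20 passed. Of the 12, 7 were well above background on all 5 arrays. The median log2 difference from EHe over the 20 probes was 2.10 at day 7 and 2.05 at day 14, beside -0.079 and -0.063 over all probes kept. Both days are compared with the same EHe array, so they are not independent of each other. Actg2, Vcl and Flna had no probe past 3-fold.

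**Figure D1:**
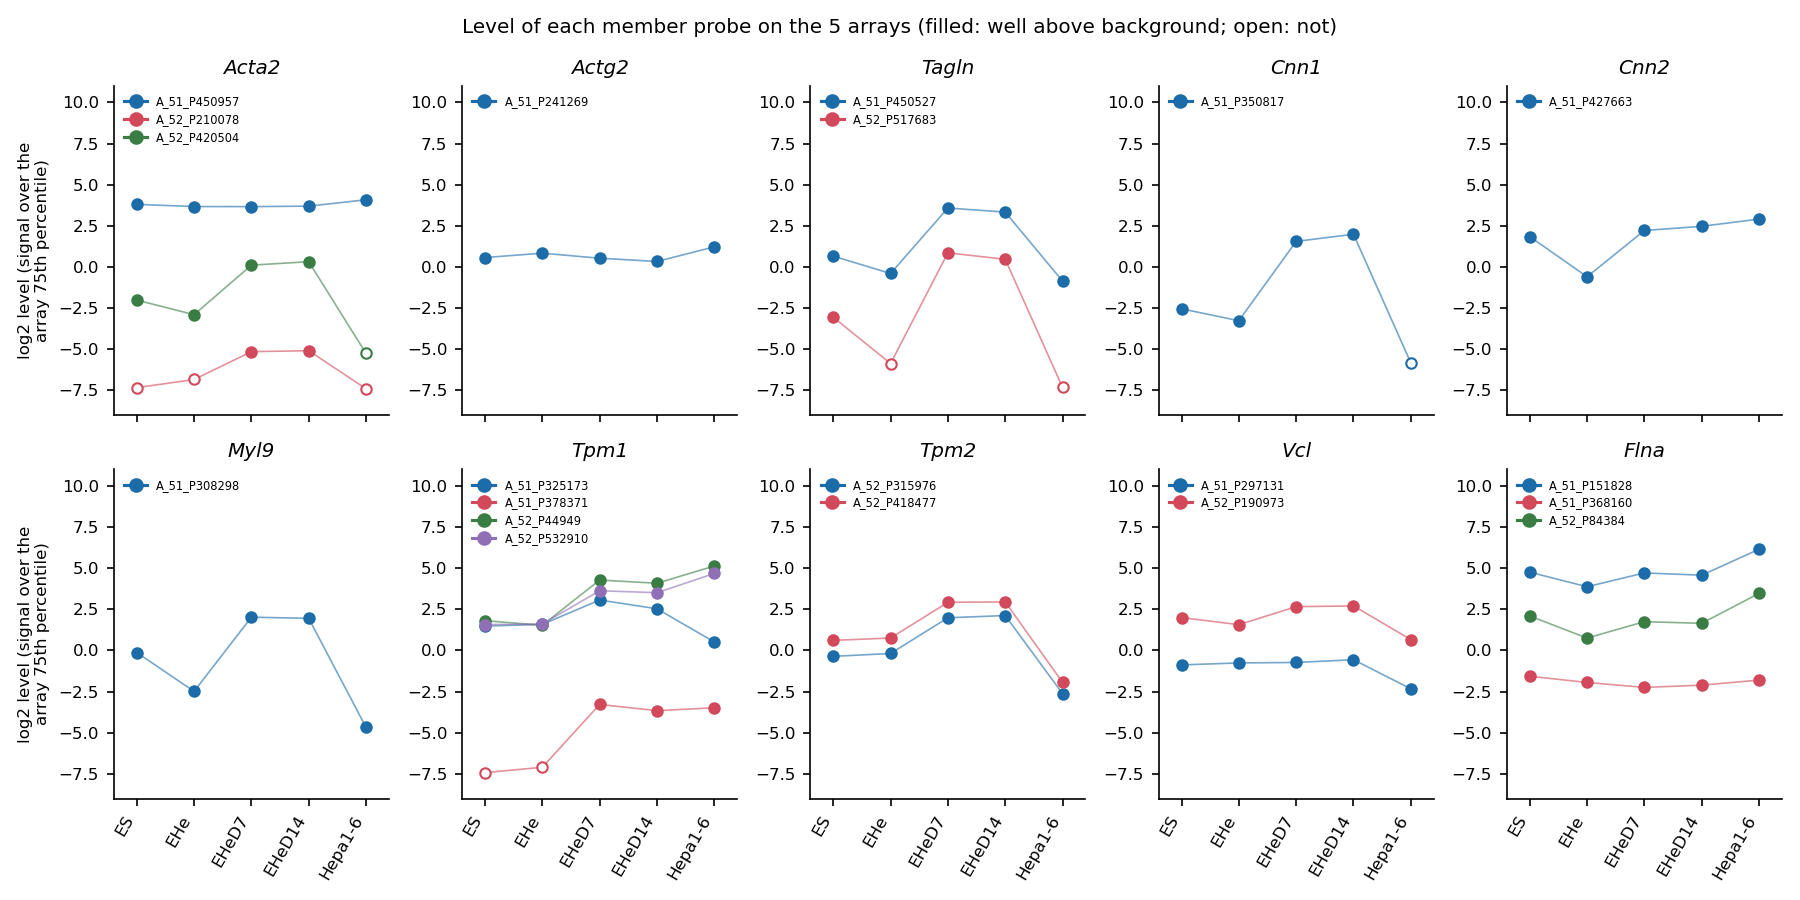
Level of every member probe (log2 of the signal over the 75th percentile of its array) on the 5 arrays, 1 panel per gene and 1 colour per probe. Filled points were well above background and open points were not, and lines only join the points of a probe. Tagln, Cnn1, Myl9 and Tpm2 peak in EHeD7 and EHeD14, while the uppermost Acta2 probe stays between 3.67 and 4.09 on all arrays.

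Acta2 encodes the alpha actin of vascular smooth muscle and lies at chr19:34240336-34255585. Its 3 probes did not agree. Probe A_52_P420504, printed as 10 spots, had a level of -2.01 ± 0.14 in ES and -5.25 ± 0.38 in Hepa1-6, where 4 of 10 spots were well above background (mean ± SD over 10 spots of 1 array). It read -2.90 ± 0.30 in EHe, 0.11 ± 0.031 in EHeD7 and 0.32 ± 0.098 in EHeD14. The differentiated hybrids stood highest and Hepa1-6 lowest. The 10 spots are repeats on 1 array, so their SD is spot noise and not a spread between cultures. The probe was 8.05-fold above EHe at day 7 and 9.31-fold at day 14, and at day 14 it was 5.04-fold above ES and at least 47.7-fold above Hepa1-6. Normexp, another background correction, gave 5.15-fold and 5.94-fold over EHe and 11.2-fold over Hepa1-6.

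The brightest Acta2 probe, A_51_P450957, gave another picture. Its level was 3.81 in ES, 4.09 in Hepa1-6, 3.67 in EHe, 3.67 in EHeD7 and 3.70 in EHeD14. Its whole range was 0.42 on the log2 scale, with Hepa1-6 the highest. By this probe EHeD14 differed from EHe by 0.025 on the log2 scale, and from Hepa1-6 by -0.39.

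The third Acta2 probe, A_52_P210078, was well above background in the differentiated hybrids and on no other array. It read -7.33 in ES, -7.40 in Hepa1-6, -6.84 in EHe, -5.14 in EHeD7 and -5.08 in EHeD14. The detection limit of the EHe array was -4.84, above both differentiated values, so no fold against EHe is given. A statement on Acta2 therefore depends on the probe, and why the probes differ was not tested.

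**Figure D2:**
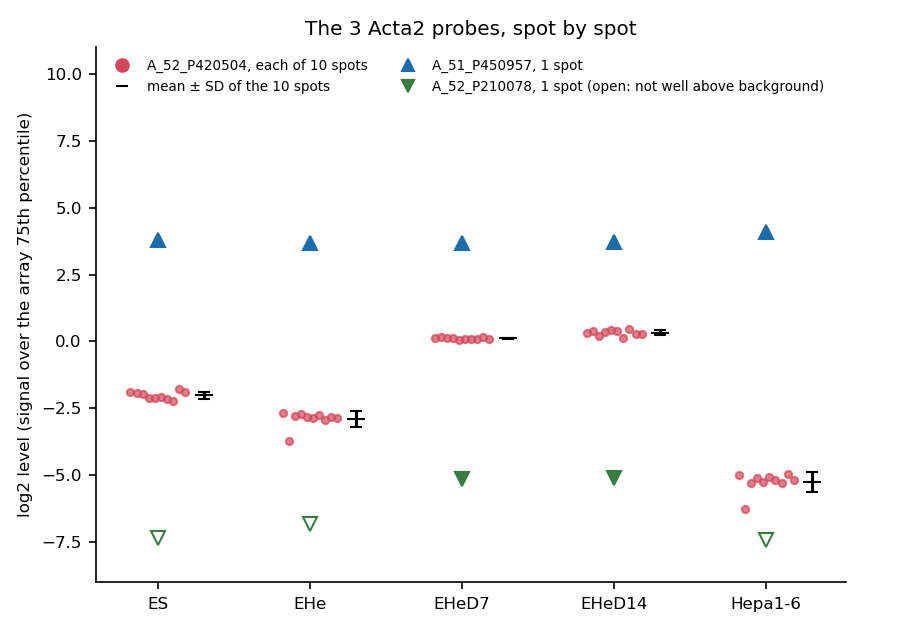
Levels of the 3 Acta2 probes on each array (log2 over the array 75th percentile). Circles are the 10 spots of A_52_P420504 with their mean and SD beside them, and triangles are the 2 probes printed once, open where not well above background. A_52_P420504 spans 5.58 on the log2 scale from Hepa1-6 to EHeD14, whereas A_51_P450957 spans 0.42.

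Actg2, the gamma actin of visceral smooth muscle (chr6:83512909-83536251), did not rise. Its only probe read 0.58 in ES, 1.22 in Hepa1-6, 0.84 in EHe, 0.53 in EHeD7 and 0.34 in EHeD14. Hepa1-6 was the highest array and EHeD14 the lowest. The difference from EHe was -0.31 on the log2 scale at day 7 and -0.50 at day 14, below the 3-fold threshold.

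Tagln, which encodes transgelin or SM22 alpha, an actin-binding protein long used as an early smooth muscle marker, lies at chr9:45929628-45936058 and rose by both of its probes. The brighter probe read 0.66 in ES, -0.86 in Hepa1-6, -0.39 in EHe, 3.59 in EHeD7 and 3.34 in EHeD14. The differentiated hybrids stood above the other 3 arrays, by 15.8-fold over EHe at day 7 and 13.3-fold at day 14, and at day 14 by 18.3-fold over Hepa1-6. The dimmer probe read -3.05 in ES, 0.86 in EHeD7 and 0.47 in EHeD14, and was not well above background in EHe (-5.86) or Hepa1-6 (-7.32). It gave at least 52.1-fold and at least 39.6-fold over EHe at days 7 and 14, and at least 54.7-fold over Hepa1-6 at day 14. With normexp these were 21.9-fold, 15.9-fold and 17.2-fold, so the bounds hold for the processed signal only.

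Cnn1, the calponin of contractile smooth muscle (chr9:22099221-22109221), had the largest measured fold of the members with signal well above background in EHe. Its level was -2.54 in ES, -3.26 in EHe, 1.56 in EHeD7 and 1.99 in EHeD14. In Hepa1-6 it read -5.82 and was not well above background. It was 28.2-fold over EHe at day 7 and 38.2-fold at day 14. At day 14 it was also 23.1-fold over ES and at least 157-fold over Hepa1-6. With normexp the gene was 17.2-fold and 23.3-fold over EHe and 44.4-fold over Hepa1-6.

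Cnn2, a calponin found more widely outside muscle (chr10:79988600-79995400), had a different order of arrays. Its level was 1.85 in ES, 2.91 in Hepa1-6, -0.59 in EHe, 2.22 in EHeD7 and 2.47 in EHeD14. EHe was the low array, 5.42-fold below ES and 11.4-fold below Hepa1-6. The rise over EHe, 7.02-fold at day 7 and 8.37-fold at day 14, brought the gene to within 3-fold of both parents.

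Myl9, the regulatory light chain of smooth muscle and nonmuscle myosin II (chr2:156775408-156781657), was the member with the widest spread between the parents among probes well above background on every array. It read -0.13 in ES, -4.68 in Hepa1-6, -2.49 in EHe, 2.02 in EHeD7 and 1.95 in EHeD14. Hepa1-6 was 23.5-fold below ES, and EHe was 5.14-fold below ES. The differentiated hybrids were 22.8-fold (day 7) and 21.7-fold (day 14) over EHe, and EHeD14 was 4.22-fold over ES and 98.9-fold over Hepa1-6, the last 29.3-fold with normexp.

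Tpm2, the beta tropomyosin of muscle filaments (chr4:43513726-43523583), gave nearly the same picture with both probes. The brighter read 0.61 in ES, -1.94 in Hepa1-6, 0.75 in EHe, 2.92 in EHeD7 and 2.95 in EHeD14. The other read -0.36, -2.63, -0.19, 1.98 and 2.12 in the same order. ES and EHe lay close together, the differentiated hybrids above them and Hepa1-6 below. The rise over EHe was 4.50-fold by both probes at day 7 and 4.58-fold and 4.94-fold at day 14, and EHeD14 exceeded Hepa1-6 by 29.7-fold and 26.8-fold, the second 15.0-fold with normexp.

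Tpm1, the alpha tropomyosin gene (chr9:67022590-67049672), which gives many isoforms by alternative promoters and exons, had 4 probes that agreed on differentiation more than on Hepa1-6. The brightest, A_52_P44949, read 1.81 in ES, 5.13 in Hepa1-6, 1.53 in EHe, 4.28 in EHeD7 and 4.08 in EHeD14. A_52_P532910, matched to the same transcript record, read 1.57, 4.68, 1.60, 3.63 and 3.51. By both, Hepa1-6 was the highest array, at 10.0-fold and 8.61-fold over ES, and the rise over EHe was 6.72-fold and 4.06-fold at day 7 and 5.87-fold and 3.74-fold at day 14.

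The other 2 Tpm1 probes belong to other transcript records of the gene. A_51_P325173 read 1.48 in ES, 0.51 in Hepa1-6, 1.58 in EHe, 3.06 in EHeD7 and 2.53 in EHeD14. Here Hepa1-6 was the lowest array, 1.96-fold below ES, and the difference from EHe was 2.79-fold at day 7 and 1.93-fold at day 14, under the threshold. A_51_P378371 was not well above background in ES (-7.43) or EHe (-7.10) and read -3.28 in EHeD7, -3.66 in EHeD14 and -3.48 in Hepa1-6, at least 2.94-fold and at least 2.27-fold over EHe, and with normexp 2.47-fold and 2.05-fold. Between probes of Tpm1, the difference of Hepa1-6 from ES ran from -0.97 to 3.94 on the log2 scale as measured. Which isoforms each probe reads was not tested.

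Vcl, which encodes vinculin, the link between actin and talin or cadherin complexes (chr14:20929383-21033676), stayed under 3-fold on differentiation. The brighter probe read 2.00 in ES, 0.66 in Hepa1-6, 1.56 in EHe, 2.66 in EHeD7 and 2.70 in EHeD14. The other read -0.88, -2.33, -0.76, -0.73 and -0.56. The first was 2.14-fold and 2.20-fold over EHe at days 7 and 14, and the second 1.02-fold and 1.14-fold. Hepa1-6 was the lowest array by both, and EHeD14 exceeded it by 4.13-fold and 3.40-fold.

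Flna, which encodes filamin A, a crosslinker of actin filaments (chrX:74223461-74249854), was also under 3-fold on differentiation. Its brightest probe read 4.75 in ES, 6.15 in Hepa1-6, 3.87 in EHe, 4.71 in EHeD7 and 4.57 in EHeD14, and the second 2.09, 3.47, 0.75, 1.75 and 1.65. By both probes EHe was the lowest and Hepa1-6 the highest array. They lay 1.79-fold and 1.99-fold over EHe at day 7 and 1.63-fold and 1.86-fold at day 14, and EHe lay 4.86-fold and 6.58-fold below Hepa1-6. The third and dimmest probe read -1.57, -1.80, -1.95, -2.25 and -2.11 and was lowest in EHeD7. It thus placed the differentiated hybrids below EHe, where the other 2 probes placed them above. Its log2 difference from EHe was -0.30 at day 7, past the spot noise limit of 0.23, and -0.16 at day 14, within a limit of 0.25. With normexp the day 7 difference was -0.20, within its limit.

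**Figure D3:**
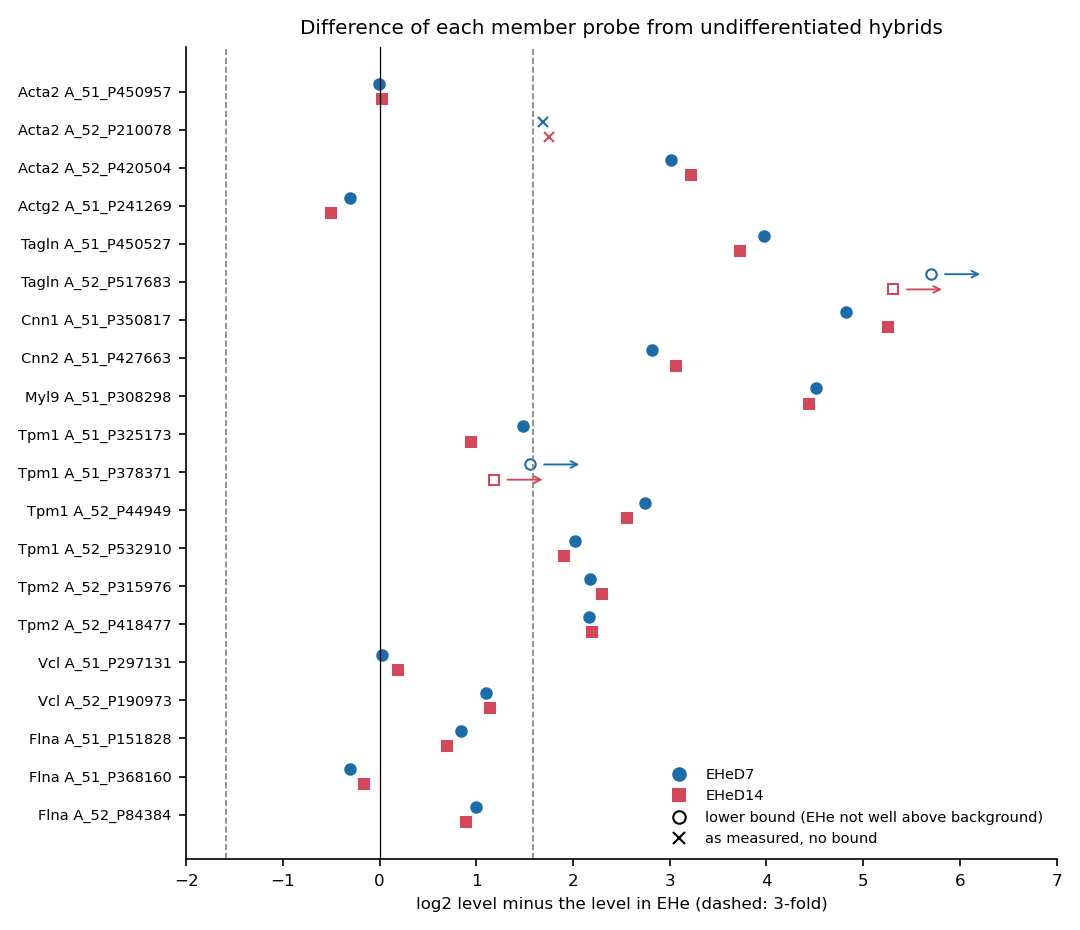
Log2 difference of each of the 20 member probes from EHe at day 7 (circles) and day 14 (squares), with dashed lines at 3-fold. Open points with arrows are lower bounds because EHe was not well above background, and crosses are values as measured for which no bound exists. The 2 days lie close together for every probe, and Cnn1, Tagln and Myl9 lie farthest to the right.

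The 2 days of differentiation lay close together. Between EHeD7 and EHeD14, 0 of the 20 probes differed by over 3-fold, beside 1.23% of all probes that were higher and 1.43% that were lower at day 14. The differences ran from -0.53 (Tpm1, A_51_P325173) to 0.44 (Cnn1) on the log2 scale. Spot noise here means a difference under 1.96 times the combined SD of repeated spots, for probes read from 1 spot. Within it lay the day differences of Acta2 A_51_P450957 and A_52_P210078, Actg2, Myl9, Tpm1 A_52_P44949 and A_52_P532910, Tpm2, Vcl and Flna. Those of Tagln, Cnn1, Cnn2 and Tpm1 A_51_P325173 and A_51_P378371 lay past it. The scanner software's own error, with a median of 0.14, is larger than the spot SD, so passing this limit does not set the days apart. The spot noise limit is too wide for Acta2 A_52_P420504, a mean of 10 spots that read 0.11 ± 0.031 and 0.32 ± 0.098 (SD over spots). With 1 array per day, a course between the days cannot be set apart from the spread between cultures.

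The parents differed in both directions. As measured, 6 of the 20 probes were over 3-fold lower in Hepa1-6 than in ES, 1 each of Acta2, Tagln, Cnn1 and Myl9 and both of Tpm2, and 3 were higher, all of Tpm1. The shares of all probes were 25.4% lower and 14.3% higher, so the members' counts lay near the background on both sides. The median log2 difference was -0.60 over the member probes and -0.40 over all probes. The scaling matters for this pair of arrays. Under median centring the value over all probes became 0.39 and 6 member probes were over 3-fold higher in Hepa1-6, and with normexp background correction 3 were lower.

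Against ES, 3 of the 20 probes, those of Cnn2 and Myl9 and the dimmer Tagln probe, were over 3-fold lower in EHe (at least 3.45-fold for Tagln), and 0 were higher, beside 5.66% of all probes lower and 3.69% higher. For Acta2 A_52_P210078 and Tpm1 A_51_P378371 neither array was well above background, so they have no fold. EHe was the lowest of the 5 arrays for 4 member probes, those of Cnn2, Tpm1 A_52_P44949 and 2 of Flna, beside 12.7% of all probes. As measured, EHe was over 3-fold above Hepa1-6 for 5 member probes (Acta2 A_52_P420504, Cnn1, Myl9 and both of Tpm2) and below it for 6 (Cnn2, 3 of Tpm1 and 2 of Flna), beside 21.8% and 14.1% of all probes. With dim signals at the detection limit 5 were below, since Tpm1 A_51_P378371 was then at least 2.56-fold lower.

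The differentiated hybrids were next set against both parents. As measured, EHeD14 was over 3-fold higher than ES for 11 of 20 probes and lower for 0, beside 9.2% and 7.55% of all probes. It was over 3-fold higher than Hepa1-6 for 11 and lower for 1, the second Flna probe at 3.53-fold, beside 22.1% and 12.7%. With median centring the count above Hepa1-6 was 7 and that below it 5. As measured, EHeD7 and EHeD14 both stood above all 3 other arrays for 11 of the 20 probes, a pattern that 16.0% of all probes showed. The 11 include Acta2 A_52_P210078, which the detection limit of EHe leaves without an order against EHe. The exceptions among the genes that rose were Cnn2, 3 of the Tpm1 probes and the brightest Acta2 probe, for which Hepa1-6 lay above at least 1 of the 2 days.

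**Figure D4:**
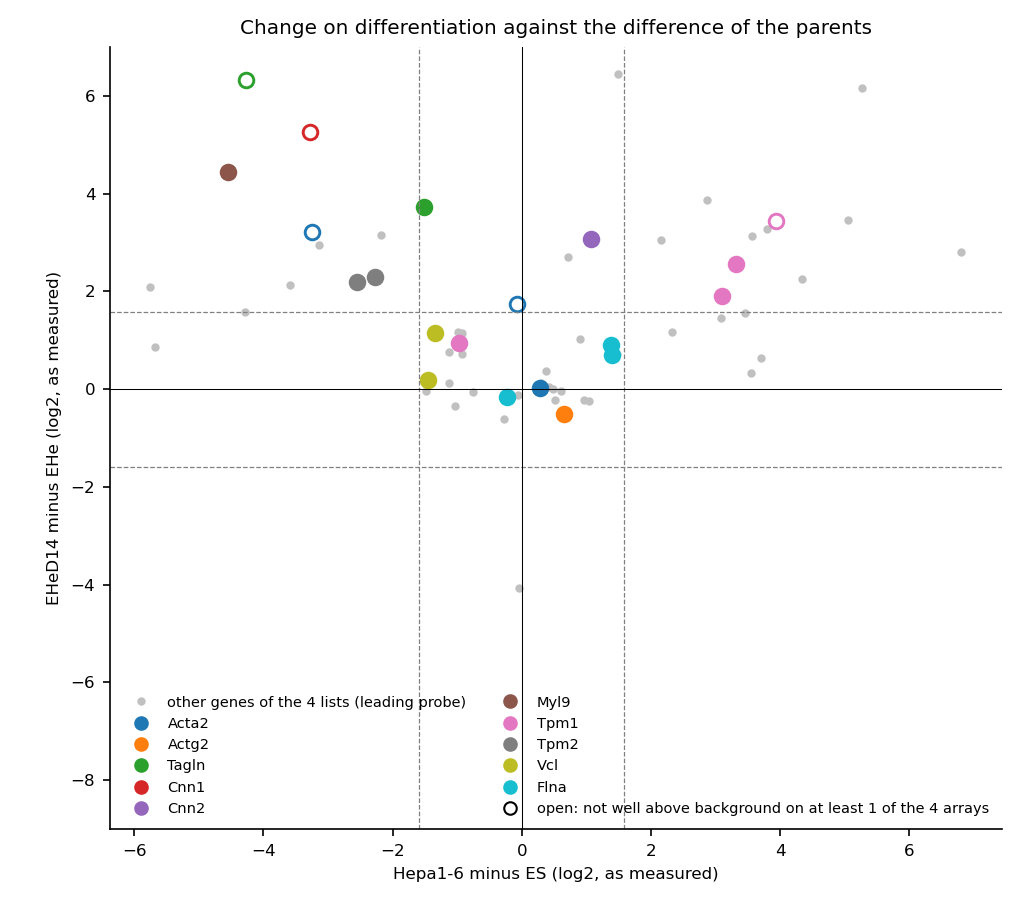
Log2 difference of EHeD14 from EHe against that of Hepa1-6 from ES, as measured, for the 20 member probes (coloured by gene) and the leading probes of the 4 related gene lists (grey). Open points were not well above background on at least 1 of the 4 arrays, and dashed lines mark 3-fold. Probes of Tagln, Cnn1, Myl9, Tpm2 and Acta2 lie at upper left, higher on differentiation and lower in Hepa1-6, and 3 of Tpm1 at upper right.

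Other genes of the contractile and adhesion machinery were read through lists, each gene by its leading probe, that with the highest mean level. Each list count at both days stands beside 6.3% of all probes higher than EHe and 3.45% lower. The lists are short, so these counts are a description and no test. Of 11 further smooth muscle genes above background on some array, 5 were over 3-fold above EHe at both days and 1 was below. Cald1, the actin-binding caldesmon, was 9.27-fold and 8.78-fold higher at days 7 and 14, Synm, the intermediate filament protein synemin, 11.7-fold and 7.71-fold, and Csrp1, a LIM protein of smooth muscle, 6.33-fold and 6.47-fold. Des (desmin) was 3.64-fold and 4.36-fold higher, and Lmod1 (leiomodin) was higher by 1.68 and 1.59 on the log2 scale, the second just past 3-fold. In ES and EHeD14, Cald1 read -2.37 and 0.52, and Synm -3.95 and -1.05. Csrp1 read 2.13 and 3.42, Des -1.78 and -0.33, and Lmod1 -1.75 and -1.52. Csrp1, Des and Lmod1 were thus within 3-fold of ES at day 14. Cald1 stood within 3-fold of Hepa1-6 at day 14, whereas Des was at least 31.4-fold above it. The gene below was Kcnmb1, a potassium channel subunit, whose leading probe was well above background in EHe alone, while its other probe was not on any array. Smtn (smoothelin) was at -0.34 and -0.04 from EHe on the log2 scale and 3.15-fold lower in EHeD14 than in Hepa1-6, and Myl6, a myosin light chain, was at -0.13 and 0.01 from EHe.

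The most specific marker of mature smooth muscle, Myh11, its myosin heavy chain, was near the detection limit throughout. It read -5.05 in ES, -4.77 in EHeD7 and -4.37 in EHeD14 and was not well above background in EHe (-5.14) or Hepa1-6 (-6.17). Synpo2 was not well above background on any array. Mylk, the kinase of the light chain that Myl9 encodes, read -5.17 in ES, -5.10 in EHeD7 and -4.86 in EHeD14, and -1.46 in Hepa1-6. The markers behind the name smooth muscle thus did not move as 1 set. Acta2 (by 1 of 3 probes), Tagln, Cnn1, Cald1 and Des were over 3-fold above EHe and well above background in the differentiated hybrids, Actg2, Smtn and Myl6 were not over 3-fold from EHe, and Myh11 lay near the limit of detection, so the genes are called by their own names here.

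Among 9 relatives of the members, 1 rose past 3-fold over EHe at both days, Acta1, the skeletal muscle actin, by at least 3.90-fold and at least 5.01-fold. Acta1 read -3.48 in ES, -2.88 in EHeD7 and -2.51 in EHeD14, so it stayed within 3-fold of ES. The only named probe of the cytoplasmic actin Actb read -0.12 in ES, -0.18 in Hepa1-6, 0.09 in EHe, -0.20 in EHeD7 and -0.03 in EHeD14. That row is flat, and how well this probe reads the gene was not tested. Actg1, the other cytoplasmic actin, was 2.81-fold and 2.22-fold over EHe, and Tpm4 was 2.72-fold and 2.73-fold. Actg1 read 7.10 in ES, 7.18 in EHeD7 and 6.84 in EHeD14. Of 13 focal adhesion and crosslinking genes, 3 rose over EHe and 0 fell, beside 6.3% and 3.45% of all probes. These were Zyx (zyxin, 15.2-fold and 14.6-fold), Tes (testin, by 3.25 and 3.47 on the log2 scale) and Flnc (9.54-fold and 8.30-fold), the filamin of striated muscle and a relative of Flna, which stayed under the threshold. In ES and EHeD14, Zyx read 2.89 and 5.69, Tes -3.41 and -0.96, and Flnc 0.76 and 1.26. Flnc was thus within 3-fold of ES. EHeD14 lay below Hepa1-6 by 1.05-fold for Zyx, 6.06-fold for Tes and 3.16-fold for Flnc. Tln1, the talin that binds vinculin, was 1.27-fold and 1.09-fold over EHe.

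Of 10 genes around SRF, the factor itself, its cofactors and known targets outside the contractile genes, 6 were higher at both days as measured and 5 when bounds were used. Ccn2, a matricellular target, was 57.5-fold and 72.0-fold over EHe. Ccn1, its relative, was 8.43-fold and 9.66-fold, Egr1, an immediate early gene, 5.27-fold and 4.74-fold, Fhl1 3.68-fold and 4.25-fold, and Fhl2 at least 46.1-fold and at least 48.4-fold. EHe was at least 15.1-fold below ES for Fhl2 and 6.68-fold below for Ccn2. In ES, Ccn2 read 1.22, Ccn1 0.11, Egr1 -0.0047, Fhl1 1.77 and Fhl2 -0.92. In EHeD14 the levels were 4.65, 2.01, 1.38, 4.08 and 0.76 in the same order. Ccn2, Ccn1 and Egr1 were 3.57-fold, 3.73-fold and 7.73-fold lower in EHeD14 than in Hepa1-6, while Fhl1 was 266-fold higher. The sixth gene, Ankrd1, was not well above background in EHe, read -4.86 in EHeD7 and -4.02 in EHeD14 and was 960-fold lower in EHeD14 than in Hepa1-6. Its level in ES was -0.93, above both differentiated hybrids. Srf itself read 1.50 in ES, 0.57 in Hepa1-6, 1.07 in EHe, 1.31 in EHeD7 and 1.78 in EHeD14. By its leading probe the cofactor gene Myocd, the myocardin of smooth and cardiac muscle, was not well above background in Hepa1-6. In the other 4 states that probe read from -4.64 to -3.94. The other Myocd probe was well above background only in EHeD7 (-5.05) and EHeD14 (-4.89), with no bound over EHe (-6.94).

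**Figure D5:**
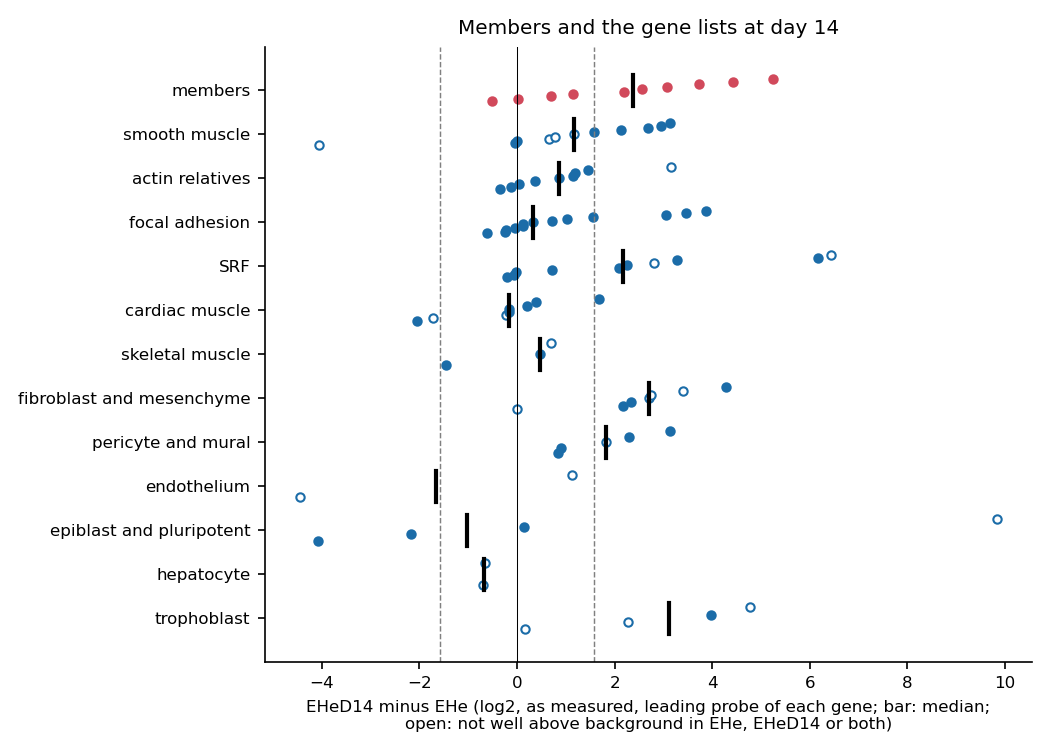
Log2 difference of EHeD14 from EHe for the leading probe of each member gene (red) and of each gene of the lists and marker sets (blue), with the median of each set as a bar and dashed lines at 3-fold. Open points were not well above background in EHe, EHeD14 or both. The members' median is 2.37, while the median of the cardiac muscle markers is -0.17.

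Markers of other cells moved too, and their counts stand beside the same 6.3% and 3.45% of all probes. Of the 7 fibroblast and mesenchyme markers above background on some array, 5 were over 3-fold above EHe at both days as measured, and 3 by bounds. Col3a1 (at least 1.82-fold and at least 2.16-fold) and Postn, with no bound at day 7, are the difference. Col1a1 was 22.1-fold and 19.5-fold higher, Col1a2 5.32-fold and 5.08-fold, and Thy1 3.51-fold and 4.49-fold, while Lum was not well above background anywhere and Dcn was well above it in Hepa1-6 alone. In ES and EHeD14, Col1a1 read -2.98 and 0.11, Col1a2 -1.62 and -0.73, and Thy1 -0.67 and 1.75. The summed signal of that list, in units of the 75th percentile, was 0.968 in EHe, 4.60 in EHeD7, 5.27 in EHeD14, 1.34 in ES and 176 in Hepa1-6, where Dcn, at a level of 7.46, made up nearly the whole sum and Col1a1, Col3a1 and Thy1 were not well above background. Of 5 pericyte markers, 2 rose over EHe, Pdgfrb by 6.94-fold and 4.90-fold and Notch3 by 11.7-fold and 8.75-fold, and the summed signal went from 3.01 in EHe to 19.1 and 13.8, against 9.24 in ES and 0.432 in Hepa1-6. Pdgfrb read -1.18 in ES, -4.47 in EHe, -1.67 in EHeD7 and -2.18 in EHeD14, so both days stayed below ES. Notch3 read 1.69 in ES, 3.79 in EHeD7 and 3.37 in EHeD14. Mcam read 2.44, 2.26 and 1.58 in the same order. The part of fibroblast or mural cells in the members' values was not tested.

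The marker lists of striated muscle held no gene that passed the threshold upwards at both days, although Acta1 and Flnc, which striated muscle also uses, did. Myod1, Myog and Myf5, the skeletal muscle regulators, were not well above background on any array, and 0 of the 3 skeletal markers above it passed 3-fold. Of 8 cardiac markers 0 were higher at both days, Myh6 was 2.44-fold and 3.19-fold over EHe, and Actn2, the sarcomeric actinin, fell by 4.05-fold and 4.17-fold. Myh6 read -0.47 in ES, above its -1.36 in EHeD7 and -0.97 in EHeD14. The endothelial genes Kdr and Cdh5 were not well above background on any array, and Pecam1 was 9.05-fold lower at day 7 and at least 18.7-fold lower at day 14. Of the hepatocyte genes, Alb and Afp were above background in Hepa1-6 and in ES for Afp, and in no hybrid. Ttr and Apoa1 were not well above background on any array, Hepa1-6 included.

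The cultures also held signal of other states. Pou5f1, the pluripotency factor Oct4, read 4.04 in EHe, 4.41 in EHeD7 and 4.18 in EHeD14, while Zfp42 fell 8.34-fold and 17.0-fold and Sox2 3.46-fold and 4.48-fold. Fgf5, a marker of the primed epiblast, was at least 145-fold and at least 227-fold over EHe. Of 4 trophoblast genes 2 rose, Eomes by 16.0-fold and 15.7-fold and Gata3 by at least 18.3-fold and at least 20.6-fold. Cdx2 read -5.75 in EHeD7 and -4.85 in EHeD14 with no bound over EHe, and Elf5 was well above background in EHeD7 alone (-5.72). Whether cells of these states were present, and their part in the members' RNA, was not tested.

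By the root mean square difference of log2 profiles centred over the 5 arrays, the genes nearest to the leading Tagln probe were Cap2 (0.090), Cpb1 (0.12), Snai3 (0.14), Tmem184a (0.15) and Vwa2 (0.18). Only Tmem184a of these was well above background on all 5 arrays, with levels of -1.85, -2.97, -2.59, 1.27 and 1.21 in the order ES, Hepa1-6, EHe, EHeD7 and EHeD14. Nearest to the leading Acta2 probe, A_51_P450957, were Trip10 (0.029), Scamp2 (0.033), Riok1 (0.035), Trp53rkb (0.036) and Txnl4a (0.040). Likeness over 5 arrays is a description of these values alone.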

How the data were processed

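RNA of 5 cell states was hybridized to 1 array each, read in 1 channel. The authors deposited scanner tables made with Agilent Feature Extraction 10.7.3.1 (per the labels). Each holds, for 45018 spots, a processed signal intensity (corrected for background by the scanner software, with no step between arrays), the median signal and local background intensities, and flags for outlying and well-above-background spots. The deposited series table repeats the processed intensity (largest relative difference 0). The labels name the dye Cy3 and the methods Cy5.

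Control spots, and 73 to 174 outlying spots an array, were removed, and 0 spots were saturated. Levels are log2 intensities less the 75th percentile of the array, as the mean of a probe's spots. A probe counted as well above background where at least 50% of its spots did, and 29975 probes that did so on 1 array or more were kept. RefSeq records named 26888 probes and left 14286 unnamed. Groups came from the labels. The text names all members, the list genes past 3-fold at both days, markers, and the 5 nearest profiles. Some list genes are not reported here. Members and lists were chosen with earlier results of these data known. The procedure was tested on simulated data. Alternatives were normexp (offset 50, on the median signal), quantile normalization, median centring, a detection-limit floor, the series table, other probes of a gene, the filter (absent, or on all 5 arrays) and a 2-fold threshold. Tools: R 4.3.3 with limma 3.58.1, and Python 3.11.15 with pandas 2.3.3, numpy 2.4.6 and matplotlib 3.10.9.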

Additional observations from a re-analysis of the deposited data

How the results depend on the processing

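The 12 member probes higher at both days numbered 10 to 13 under the other scalings and background correction, the detection-limit floor, the series table and the 2-fold threshold, and 0 were lower. Of the 12, 7 passed the filter on all 5 arrays. Normexp also took the day 14 fold over Hepa1-6 from 98.9 to 29.3 for Myl9. Normexp background correction took the count lower in Hepa1-6 than in ES from 6 to 3. Median centring took the count higher in Hepa1-6 than in ES from 3 to 6, and took the counts of EHeD14 against Hepa1-6 from 11 to 7 higher and from 1 to 5 lower. Quantile normalization took the latter to 2. The count higher in EHe than in Hepa1-6 went from 5 to 2 with normexp, 3 with quantile normalization and 8 at 2-fold. Also at 2-fold, 6 probes were higher in Hepa1-6 than in ES, 5 were lower in EHe than in ES, and 4 were lower in EHeD14 than in Hepa1-6. With dim signals floored at detection, the Acta2 probe A_52_P210078 turned to -0.30 (day 7) and -0.24 (day 14) against EHe, which follows from the higher limit of the EHe array. Read by A_51_P325173 in place of the leading probe, Tpm1 turned to -0.97 for Hepa1-6 against ES and to 1.07 for EHe against Hepa1-6. The cause was not tested. Of 800 single-probe values, 539 moved by less than the combined SD of repeated spots and 259 by more. The other 2 are those of Acta2 A_52_P210078 that the floor turned. The 539 hold all 160 values of the series table, which repeats the processed signal and could not move. Under normexp, quantile normalization and median centring, the member differences that changed sign were at most 0.57 on the log2 scale. No paired analysis was possible because there was 1 array a state. The number of arrays limits the precision, and the signal over background limits what is said of Acta2 A_52_P210078, Tpm1 A_51_P378371 and Myh11.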

Other observations

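The genes nearest in profile to the Acta2 probe that rose, A_52_P420504, were Csdc2 (0.13), Tmem119 (0.16), Rab38 (0.21), Lor (0.23) and Car14 (0.23, root mean square difference of centred log2 levels over 5 arrays). This probe was chosen for the comparison after its values had been seen. Of these genes, Lor and Car14 were well above background in EHe, and none of the 5 was in Hepa1-6.

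Kcnmb1 read -1.40 in EHe by its leading probe, which was not well above background on the other 4 arrays, and was by it at least 27.0-fold above EHeD7 and at least 16.8-fold above EHeD14. Its second probe read -7.11 in EHe and was not well above background on any array.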
